A study of Mus musculus with 12 samples.

Results

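The genes analyzed here encode calcineurin, the phosphatase that the immunosuppressant FK506 (tacrolimus) inhibits, together with the FK506-binding protein FKBP12, the NFAT transcription factors and the calcineurin regulator RCAN1. The 10 genes, Fkbp1a, Ppp3ca, Ppp3cb, Ppp3cc, Ppp3r1, Rcan1, Nfatc1, Nfatc2, Nfatc3 and Nfat5, were taken by symbol from a table of 45777 genes, and 10 of 10 were among the 15197 genes expressed highly enough to be tested. The RNA came from CD4+ T cells of the spleens of wild type C57BL/6 mice aged 7 weeks, isolated with magnetic beads and kept for 3 days with anti-CD3 at 0.5 µg/ml, an antibody that triggers the T cell receptor. The cultures held no drug (Control), Metformin, FK506 or Metformin+FK506, with 3 samples in each of the 4 groups, so stimulation, strain and culture time were shared by all of them. The study's methods also list soluble anti-CD28 and older mice, and the drug doses of these cultures are not given in the sources used here. The labels do not say whether the 3 samples of a group came from separate mice or cultures, so the tests measure only the spread between these samples.

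In a stimulated T cell, calcium entering through ORAI channels binds calmodulin, which activates calcineurin, a pair of a catalytic subunit (from Ppp3ca, Ppp3cb or Ppp3cc) and a regulatory subunit (from Ppp3r1). Calcineurin strips phosphate from NFATc1, NFATc2 and NFATc3, which then enter the nucleus and switch on cytokine genes such as Il2, whereas NFAT5 is a relative that responds to osmotic stress and lacks the calcineurin docking region. FK506 bound to FKBP12, the product of Fkbp1a, blocks calcineurin, and RCAN1 binds calcineurin and is itself encoded by an NFAT-induced transcript. All values below are RNA levels, which say nothing of protein amount or of enzyme activity.

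With FK506, the transcript of its own binding protein fell 3.59-fold, the catalytic subunit gene Ppp3ca rose 4.77-fold while Ppp3cc fell 2.51-fold, and the NFAT genes moved in opposite directions, with Nfatc1 and Nfatc3 higher and Nfatc2 and Nfat5 lower. Of the 10 genes, 3 were higher and 5 lower than in Control at an adjusted p under 0.05, in a table where 41.3% of all tested genes were called higher and 39.6% lower. With Metformin, 5 were higher and 4 lower, against 28.6% and 27.4% of all tested genes. With Metformin+FK506, 4 were higher and 5 lower than in Control, against 42.1% and 39.6% of all tested genes. These shares are so high that a count of changed genes does not set the pathway apart, and the sizes and directions of the separate genes are given instead. The 3 comparisons use the same Control samples and are therefore only set side by side.

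Sequences upstream of the transcription start are shown for 4 of the genes, because a value per gene cannot separate the 2 annotated starts of Rcan1, and because Fkbp1a and Nfatc2 fell with FK506 while Nfatc3 rose. Nfatc2 and Nfatc3 also have 2 annotated starts each, and the window of the start farthest upstream is printed for both. Each is the 250 bases before a RefSeq start in GRCm38.p6, the same assembly as the mm10 build of the files, with capitals marking the NFAT core GGAAA on either strand (TTTCC on the other) and the AP-1 site TGANTCA. The Rcan1 windows lie at chr16:92466170-92466419 for the start farthest upstream and chr16:92400079-92400328 for the internal start, both on the minus strand. The Fkbp1a window is chr2:151542233-151542482 on the plus strand, that of Nfatc2 is chr2:168601658-168601907 on the minus strand, and that of Nfatc3 is chr8:106058568-106058817 on the plus strand.
Rcan1 upstream start: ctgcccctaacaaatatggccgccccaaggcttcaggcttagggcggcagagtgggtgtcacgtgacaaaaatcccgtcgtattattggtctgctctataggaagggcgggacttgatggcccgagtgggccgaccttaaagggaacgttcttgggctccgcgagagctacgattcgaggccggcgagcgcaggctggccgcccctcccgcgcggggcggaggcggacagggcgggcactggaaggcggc
Rcan1 internal start: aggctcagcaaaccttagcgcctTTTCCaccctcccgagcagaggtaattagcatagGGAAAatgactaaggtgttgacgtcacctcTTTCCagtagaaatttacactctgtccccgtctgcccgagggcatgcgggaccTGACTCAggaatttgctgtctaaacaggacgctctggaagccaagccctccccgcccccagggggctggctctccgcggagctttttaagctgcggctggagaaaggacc
Fkbp1a: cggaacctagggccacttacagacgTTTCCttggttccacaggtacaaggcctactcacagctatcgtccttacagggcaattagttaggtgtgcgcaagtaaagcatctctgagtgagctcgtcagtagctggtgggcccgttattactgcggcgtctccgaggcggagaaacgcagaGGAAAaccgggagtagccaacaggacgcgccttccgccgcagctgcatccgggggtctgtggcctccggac
Nfatc2: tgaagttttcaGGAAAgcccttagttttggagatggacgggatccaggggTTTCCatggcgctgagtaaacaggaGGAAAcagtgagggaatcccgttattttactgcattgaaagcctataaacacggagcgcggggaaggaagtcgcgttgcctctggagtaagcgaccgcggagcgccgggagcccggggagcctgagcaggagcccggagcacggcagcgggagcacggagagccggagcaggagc
Nfatc3: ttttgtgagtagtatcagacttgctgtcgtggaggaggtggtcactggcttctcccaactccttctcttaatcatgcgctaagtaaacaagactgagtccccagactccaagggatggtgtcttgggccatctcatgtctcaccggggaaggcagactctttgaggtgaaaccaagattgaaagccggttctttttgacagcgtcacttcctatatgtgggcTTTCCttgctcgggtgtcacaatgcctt

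The internal Rcan1 start had 3 GGAAA matches and 1 TGANTCA match, and the upstream start had 0 of either. Fkbp1a had 2 GGAAA matches, the printed window of Nfatc2 had 3 and that of Nfatc3 had 1. The windows of the other starts, chr2:168590366-168590615 for Nfatc2 and chr8:106059340-106059589 for Nfatc3, had 1 and 0 GGAAA matches. None of the Fkbp1a, Nfatc2 and Nfatc3 windows held TGANTCA. Among 32851 windows of 27025 genes, 55.6% held GGAAA at least once, 6.39% held it 3 or more times and 6.75% held TGANTCA, so the core by itself is common. The sequence table matched 7 of the 10 genes, and Ppp3ca, Ppp3cc and Nfatc1 are named only. Of the matched genes not printed, Ppp3cb had 3 GGAAA matches, Nfat5 had 2 and Ppp3r1 had 0, and none held TGANTCA. The matches are descriptions of letters and not of bound sites.

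The libraries held 43402600 to 64290100 counted reads, and the 10 genes had between 481 and 36447 reads per library. The 12 T cell markers were all detected, with summed FPKM (fragments per kilobase of transcript, scaled to library size) of 3244 to 3317 in Control and 3404 to 3561 with FK506. With FK506, 6 of them were called higher and 6 lower, against 41.3% and 39.6% of all tested genes. Scaling libraries to these markers, used below as an alternative, therefore rests on genes that changed themselves. Marker sums of B, myeloid and dendritic cells were higher with FK506. The summed FPKM of 10 B cell markers was 51.7 to 54.0 in Control, 68.4 to 76.7 with Metformin, 852 to 902 with FK506 and 418 to 450 with Metformin+FK506. The sum over 10 myeloid markers was 4.28 to 4.45 in Control, 8.35 to 9.71 with Metformin, 1317 to 1366 with FK506 and 887 to 1006 with Metformin+FK506, with C1qa, C1qc, Adgre1, Fcgr1 and Clec4a1 at 0 in the Control samples. The lower myeloid sum with both drugs than with FK506 was that of Lyz2 (981 and 539 FPKM, adjusted p = 6.0e-07), the lysozyme gene. Without Lyz2 the sum was 340 to 373 with FK506 and 388 to 404 with both drugs, and C1qb, C1qc and Cd68 were called higher. The sum over 4 dendritic cell markers was 2.60 to 2.71 in Control, 4.43 to 5.20 with Metformin, 51.6 to 58.1 with FK506 and 34.5 to 36.8 with both drugs, with Xcr1 and Siglech at 0 in the Control samples. Xcr1 and Siglech were too low over the 12 samples to be tested. The higher sum with FK506 was mainly that of Flt3 (0.650 to 32.3 FPKM) and Zbtb46 (2.01 to 22.1 FPKM). The CD8 T cell markers Cd8a and Cd8b1 did not follow. Their sum was 9.01 to 9.52 in Control, 12.9 to 13.2 with Metformin, 6.84 to 7.35 with FK506 and 6.93 to 8.64 with both drugs. The sum over 3 NK cell markers was at most 1.27 in any sample. The part of these other cells in the changes of the 10 genes was not tested, and in bulk RNA fewer cells of a type and less RNA per cell cannot be told apart.

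Fkbp1a encodes the protein to which FK506 must bind before it can act. Its FPKM was 265, 254 and 264 in the Control samples, 139, 150 and 150 with Metformin, 88.1, 82.8 and 81.6 with FK506, and 85.5, 88.7 and 88.0 with both drugs. Control stood above every treated sample and Metformin lay between Control and FK506, without overlap, while the FK506 and combination samples overlapped. In the edgeR quasi-likelihood test with Benjamini-Hochberg adjustment, used throughout, its log2 change was −1.84 (SE 0.041, adjusted p = 3.6e-16) with FK506 and −0.87 (SE 0.040, adjusted p = 2.4e-11) with Metformin. Metformin+FK506 differed from FK506 by 0.08 (95% interval −0.0014 to 0.16, adjusted p = 0.16), which did not pass the threshold. Fkbp1a was the highest of the 10 genes in Control, Metformin and FK506 and came after Nfatc1 with both drugs. Known pseudogenes of Fkbp1a had at most 14 reads in any library.

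**Figure D1:**
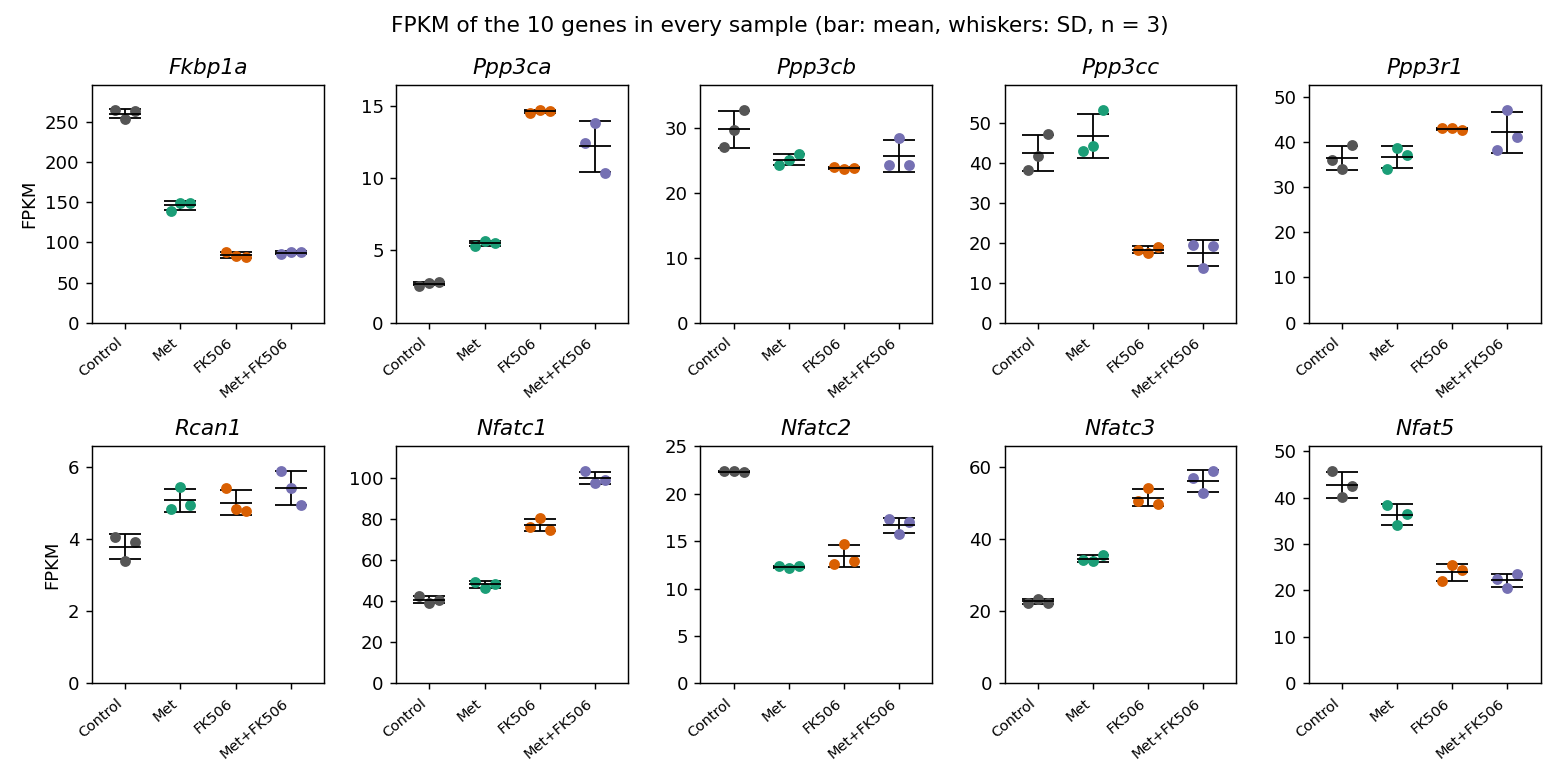
FPKM (vertical axis, linear from 0) of each of the 10 genes in the 12 samples, with each point a sample, the horizontal bar the mean and the whiskers the SD of 3 samples, and Met standing for metformin. Fkbp1a falls stepwise from about 261 in Control to 84.2 with FK506, Ppp3ca climbs from 2.70 to 14.6, and Nfatc2 is lowest with Metformin.

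The 3 catalytic subunit genes changed in different directions. Ppp3ca, which encodes the alpha isoform, had an FPKM of 2.57, 2.76 and 2.78 in Control, 5.32, 5.68 and 5.49 with Metformin, 14.6, 14.7 and 14.6 with FK506, and 12.5, 13.8 and 10.4 with both drugs. No groups overlapped, and each treated sample exceeded each Control sample. The log2 fold change against Control was 0.99 (SE 0.089) with Metformin, 2.25 (SE 0.088) with FK506 and 1.99 (SE 0.088) with Metformin+FK506, with adjusted p-values of 9.2e-08, 4.2e-13 and 2.2e-12. With Metformin added to FK506, Ppp3ca was lower, with a log2 fold change of −0.26 (SE 0.079, adjusted p = 0.019), in a group whose samples spread more (SD 1.76 FPKM) than those with FK506 alone (SD 0.0728 FPKM). This difference did not pass with limma on log2(FPKM + 0.1) (adjusted p = 0.051) or on quantile-normalized values (adjusted p = 0.070), and it ranged from −0.39 to −0.16 with single samples left out.

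Ppp3cc, which encodes the gamma isoform, went the other way with FK506. Its FPKM was 38.4, 41.8 and 47.3 in Control, 43.1, 44.3 and 53.2 with Metformin, 18.3, 17.4 and 19.1 with FK506, and 19.4, 13.7 and 19.2 with both drugs. The samples with FK506, alone or with Metformin, lay below all others, while Control overlapped Metformin. The log2 fold change was −1.33 (SE 0.038, adjusted p = 8.7e-15) with FK506, −1.46 (SE 0.039, adjusted p = 2.8e-15) with Metformin+FK506 and 0.15 (SE 0.037, adjusted p = 0.0022) with Metformin. Metformin+FK506 was lower than FK506, with a log2 fold change of −0.13 (adjusted p = 0.017). FPKM spread more than reads for this gene, since the length implied by reads per FPKM ranged from 3356 to 4777 bases over the libraries, and neither the rise with Metformin (adjusted p = 0.41) nor the fall between FK506 and the combination (adjusted p = 0.69) passed when log2(FPKM + 1) was tested with limma.

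Ppp3cb, which encodes the beta isoform, changed less than the other catalytic genes in the groups with FK506. Its FPKM was 27.0, 29.6 and 32.7 in Control, 24.3, 25.0 and 26.0 with Metformin, 24.0, 23.7 and 23.8 with FK506, and 24.3, 28.4 and 24.2 with both drugs. Every sample with a single drug was below Control, and the combination overlapped Control. With FK506 the log2 fold change was −0.39 (SE 0.062, adjusted p = 2.6e-05), against −0.27 (adjusted p = 6.6e-04) with Metformin+FK506 and −0.16 (adjusted p = 0.041) with Metformin. When libraries were scaled to the 12 T cell markers, neither the FK506 value (−0.14, adjusted p = 0.059) nor the combination value (−0.08, adjusted p = 0.28) passed. The medians of all tested genes under this scaling were 0.27 and 0.23, so Ppp3cb still lay below the typical gene. The Metformin value lost its call without Control replicate 3 (−0.10, adjusted p = 0.20) or without Metformin replicate 1, 2 or 3 (adjusted p = 0.13, 0.080 and 0.051).

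Per length, the make-up of the catalytic subunit transcripts differed between the groups. Ppp3ca supplied 3.62% ± 0.227 of the summed FPKM of the 3 genes in Control, 7.12% ± 0.577 with Metformin, 25.8% ± 0.494 under FK506 and 22.1% ± 2.74 under both drugs (mean ± SD, n = 3). Ppp3cc supplied 56.7% ± 0.440 in Control, 60.4% with Metformin, 32.2% ± 0.963 under FK506 and 31.6% ± 6.18 under both drugs, the last SD resting on replicate 2 at 24.5%. Ppp3cb made up 39.7% of the sum in Control and 42.0% with FK506. The sum itself was 75.0 ± 7.43 FPKM in Control, 77.5 ± 6.39 with Metformin, 56.7 ± 0.878 under FK506 and 55.3 ± 1.36 under both drugs. From counts per coding length, the Ppp3ca and Ppp3cc shares with FK506 were 32.4% and 30.5%, so the order of these genes depended on the length used. On both scales Ppp3cc was the most abundant catalytic transcript in Control and Metformin and Ppp3cb in both groups with FK506.

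**Figure D2:**
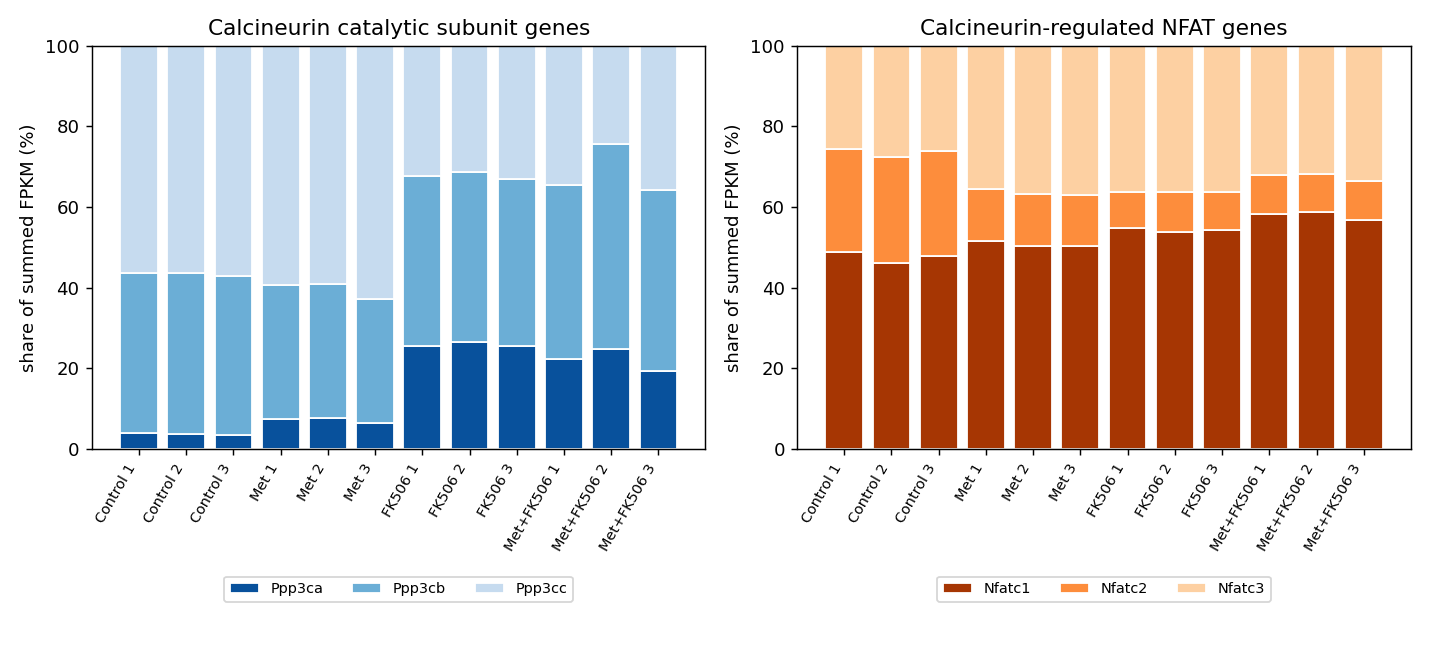
Share (%) of the summed FPKM held by each catalytic subunit gene (left) and by Nfatc1, Nfatc2 and Nfatc3 (right) in each of the 12 samples, stacked to 100. The Ppp3ca segment widens from 3.62% on average in Control to 25.8% with FK506, and the Nfatc2 segment narrows from 26.0% to 9.42%.

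Ppp3r1 encodes the calcium-binding regulatory subunit that every catalytic isoform in these cells needs, and no change of it was found in the count test. Its FPKM was 35.9, 34.0 and 39.3 in Control, 34.0, 38.7 and 37.2 with Metformin, 43.1, 43.1 and 42.7 with FK506, and 38.2, 47.0 and 41.1 with both drugs. The FK506 samples were above Control on this scale, and the other groups overlapped it. In the count test the log2 fold change was 0.02 (95% interval −0.12 to 0.16, adjusted p = 0.78) with FK506, −0.02 (−0.17 to 0.12, adjusted p = 0.82) with Metformin and 0.02 (−0.12 to 0.16, adjusted p = 0.80) with both drugs. On log2(FPKM + 1) the FK506 value was 0.24 (adjusted p = 0.016), where the median of all tested genes was 0.19, and with scaling to the T cell markers it was 0.27 (adjusted p = 0.0029), where the median was also 0.27. The value with both drugs passed too, at 0.20 on log2(FPKM + 1) (adjusted p = 0.032), 0.21 on log2(FPKM + 0.1) (adjusted p = 0.040) and 0.22 with scaling to the T cell markers (adjusted p = 0.011), where the medians were 0.17, 0.20 and 0.23. Relative to the typical gene, Ppp3r1 therefore stayed near 0 on each scale. With the catalytic sum lower, Ppp3r1 FPKM per catalytic FPKM was 0.487 ± 0.0364 in Control and 0.757 ± 0.0148 with FK506. A transcript of the neighboring gene Wdr92 (at most 9.83 FPKM) shares 27.6% of its 50-base runs with Ppp3r1, so reads could be split between them.

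Rcan1, the feedback regulator whose induction is often read as a sign of calcineurin activity, was not lower with FK506. Its FPKM was 4.07, 3.40 and 3.92 in Control, 4.85, 5.44 and 4.96 with Metformin, 5.43, 4.84 and 4.80 with FK506, and 5.89, 5.42 and 4.96 with both drugs. All treated samples exceeded all Control samples on this scale. Metformin gave a log2 fold change of 0.39 (SE 0.099, adjusted p = 0.0031), against 0.32 (SE 0.099, adjusted p = 0.0078) with both drugs and 0.18 (95% interval −0.01 to 0.38, adjusted p = 0.099) with FK506. The FK506 value passed on log2(FPKM + 1), at 0.33 (adjusted p = 0.0014) against a median of 0.19 over all genes, and with scaling to the T cell markers, at 0.43 (adjusted p = 8.2e-04) against 0.27. The value per gene pools the upstream and internal starts printed above.

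Of the 3 calcineurin-regulated NFAT genes, Nfatc1 and Nfatc3 were higher with every treatment and Nfatc2 was lower. Nfatc1, whose product includes an inducible short form in activated lymphocytes, had an FPKM of 42.6, 39.2 and 40.8 in Control, 49.6, 46.4 and 48.7 with Metformin, 76.4, 80.6 and 74.7 with FK506, and 104, 97.8 and 99.3 with both drugs. The groups did not overlap and were ordered Control, Metformin, FK506 and Metformin+FK506. Its log2 fold change against Control was 0.20 (SE 0.041, adjusted p = 5.5e-04), 0.69 (SE 0.041, adjusted p = 1.0e-10) and 1.10 (SE 0.041, adjusted p = 2.2e-13) in that order. Metformin+FK506 exceeded FK506 by 0.41 (SE 0.040, adjusted p = 1.1e-06), and in that comparison 10 of 10 B cell markers were lower (median log2 fold change −0.98), while of 9 myeloid markers tested 3 were higher and 1 lower (median 0.16). Of all tested genes 15.6% were higher and 15% lower there. The part of B and myeloid cells was not tested.

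Nfatc2, abundant in resting T cells, was lower with every treatment, and the combination lay closer to Control than did either drug. Its FPKM was 22.4, 22.4 and 22.3 in Control, 12.3, 12.1 and 12.4 with Metformin, 12.6, 14.8 and 12.9 with FK506, and 17.3, 15.8 and 17.0 with both drugs. Control was above all treated samples and the combination was above all samples with a single drug. The log2 fold change was −0.90 (SE 0.045, adjusted p = 7.1e-11) with Metformin, −0.96 (SE 0.045, adjusted p = 5.3e-12) with FK506 and −0.62 (SE 0.045, adjusted p = 1.4e-09) with both drugs. Against the single drugs, the combination was higher by 0.34 (adjusted p = 2.8e-05, against FK506) and 0.28 (adjusted p = 3.5e-05, against Metformin).

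Nfatc3 rose with each treatment. Its FPKM was 22.4, 23.6 and 22.4 in Control, 34.3, 33.9 and 35.8 with Metformin, 50.7, 54.4 and 49.8 with FK506, and 57.0, 52.8 and 59.0 with both drugs. Only FK506 and Metformin+FK506 overlapped. Metformin gave a log2 fold change of 0.57 (SE 0.043, adjusted p = 8.8e-09), against 0.97 (SE 0.043, adjusted p = 2.3e-12) with FK506 and 1.11 (SE 0.043, adjusted p = 3.5e-13) with both drugs. The difference between combination and FK506 was 0.15 (adjusted p = 0.014) and lost its call without FK506 replicate 1, FK506 replicate 3 or Metformin+FK506 replicate 3 (0.13, 0.11 and 0.11, adjusted p = 0.070, 0.090 and 0.080), with scaling to the T cell markers (0.10, adjusted p = 0.11) and with limma on log2(FPKM + 1) (0.12, adjusted p = 0.11). As a share of the 3 genes' summed FPKM, Nfatc1 went from 47.5% in Control to 54.3% with FK506 and 57.9% with both drugs, and Nfatc2 from 26.0% to 9.42% and 9.64%. The Nfatc1 to Nfatc2 ratio of FPKM was 1.83 ± 0.0758 in Control, 3.93 ± 0.0987 with Metformin, 5.77 ± 0.302 under FK506 and 6.01 ± 0.172 under both drugs. The sum of the 3 genes was 86.0 ± 1.24, 95.2 ± 2.39, 142 ± 6.60 and 173 ± 5.97 FPKM in the same order. Nfatc4, the remaining calcineurin-regulated member, had at most 48 reads in any library and was not tested.

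Nfat5 encodes the factor that controls the response to hypertonicity. Its FPKM was 45.7, 40.1 and 42.6 in Control, 38.5, 34.1 and 36.5 with Metformin, 22.0, 25.4 and 24.3 with FK506, and 22.4, 20.6 and 23.5 with both drugs. Control was above Metformin, which was above both groups with FK506, and those overlapped. FK506 gave a log2 fold change of −1.08 (SE 0.066, adjusted p = 1.8e-10), against −1.14 (SE 0.066, adjusted p = 8.9e-11) with both drugs and −0.29 (SE 0.065, adjusted p = 0.0014) with Metformin. The combination and FK506 differed by −0.06 (95% interval −0.19 to 0.07, adjusted p = 0.54).

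**Figure D3:**
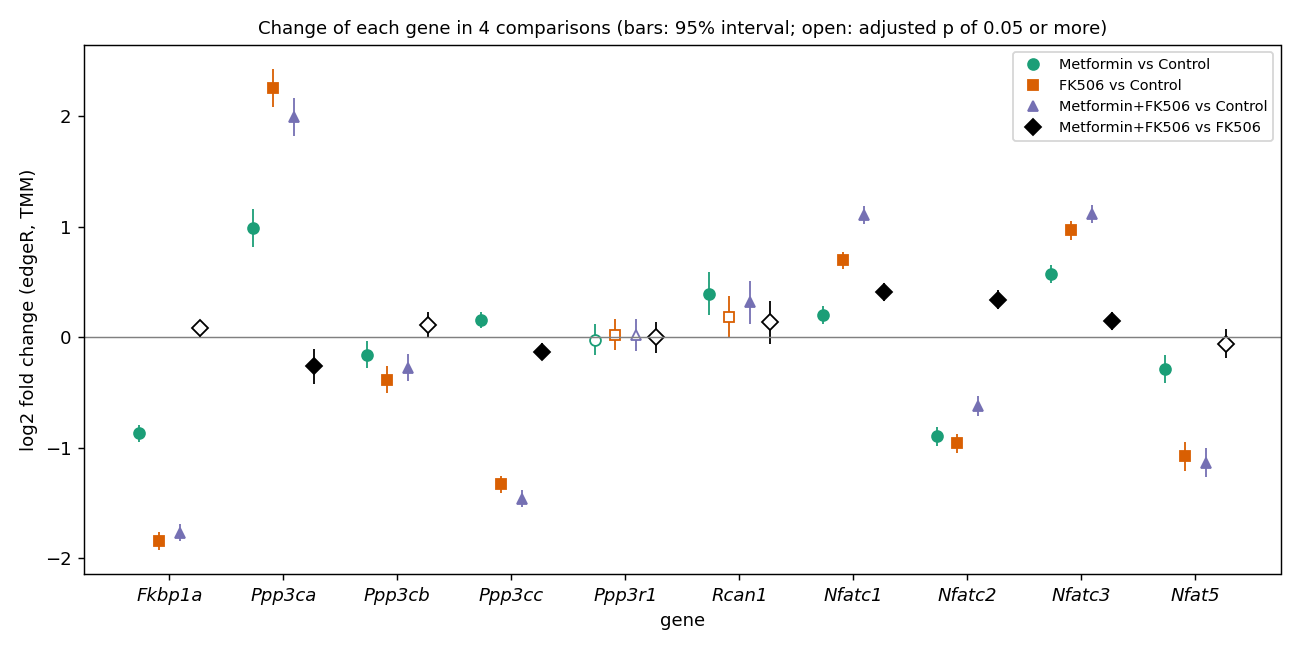
Log2 fold change of each gene (vertical axis) in 4 comparisons, with bars of 95% intervals and open symbols for an adjusted p of 0.05 or more. Fkbp1a, Ppp3ca, Ppp3cc, Nfatc3 and Nfat5 show the widest spread from 0 with FK506, Ppp3r1 sits at 0.02, and the diamonds for combination against FK506 all lie between −0.26 and 0.41.

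Within Control, the levels per length ran from Fkbp1a (261 FPKM) through Nfat5, Ppp3cc, Nfatc1 and Ppp3r1 (42.8 to 36.4), Ppp3cb (29.8), Nfatc3 and Nfatc2 (22.8 and 22.3) and Rcan1 (3.80) to Ppp3ca (2.70). Neighbors from Nfat5 to Ppp3r1, and Nfatc3 with Nfatc2, had overlapping samples, and the other neighbors did not. With FK506 the order was Fkbp1a (84.2), Nfatc1 (77.2), Nfatc3 (51.6), Ppp3r1 (43.0), Nfat5 and Ppp3cb (23.9 and 23.8), Ppp3cc (18.3), Ppp3ca and Nfatc2 (14.6 and 13.4) and Rcan1 (5.02). The overlapping neighbors there were Nfat5 with Ppp3cb and Ppp3ca with Nfatc2. On this scale Ppp3ca moved from rank 10 to rank 8, and Fkbp1a per summed catalytic FPKM from 3.50 ± 0.360 to 1.48 ± 0.0642.

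The next question was whether Metformin acted alike with and without FK506. The combination against FK506 alone called 3 of the 10 genes higher and 2 lower, against 15.6% and 15% of all tested genes. With limma these 5 calls became 3 on log2(FPKM + 1), 2 on log2(FPKM + 0.1) and 3 on quantile-normalized values. Against Metformin alone it called 4 higher and 3 lower, where 40.3% and 37.9% of all genes were called. The interaction, which is the log2 effect of Metformin with FK506 minus that without, was called positive for 4 genes and negative for 3, against 22.5% and 24% of all tested genes. It was largest for Ppp3ca (−1.25, SE 0.119, adjusted p = 3.1e-07), Nfatc2 (1.24, SE 0.064, adjusted p = 1.8e-10) and Fkbp1a (0.95, SE 0.057, adjusted p = 1.2e-09). For Fkbp1a the separate log2 changes add up to −2.71, and the combination gave −1.77. For Nfatc2 they add up to −1.86 and the combination gave −0.62, and for Ppp3ca the sum was 3.24 and the combination gave 1.99. Smaller interactions were −0.43 for Nfatc3, −0.28 for Ppp3cc, 0.27 for Ppp3cb and 0.21 for Nfatc1, with adjusted p-values of 2.1e-05, 3.9e-04, 0.020 and 0.0066. Those of Ppp3cc and Nfatc1 did not pass on any of the 3 limma scales (adjusted p from 0.28 to 0.39 and from 0.052 to 0.14). That of Ppp3cb did not pass with scaling to the T cell markers (adjusted p = 0.053), without Control replicate 3 (adjusted p = 0.062) or without Metformin replicate 1 (adjusted p = 0.050). Those of Nfat5 (0.23, adjusted p = 0.055), Rcan1 (−0.26, adjusted p = 0.14) and Ppp3r1 (0.02, adjusted p = 0.90) did not pass.

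**Figure D4:**
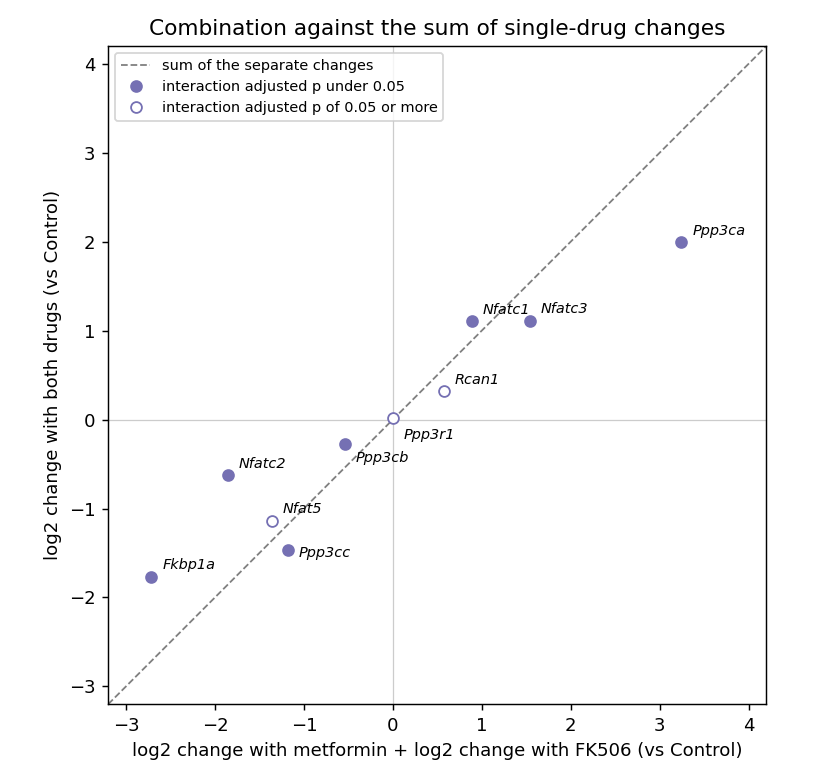
Log2 change with both drugs against Control (vertical axis) plotted against the sum of the log2 changes with each drug alone (horizontal axis), 1 point per gene, with the dashed line where the values are equal and open points for an interaction with an adjusted p of 0.05 or more. Fkbp1a (−2.71 against −1.77), Nfatc2 (−1.86 against −0.62) and Ppp3ca (3.24 against 1.99) lie farthest from the line, each nearer 0 with both drugs.

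The steps before and around calcineurin were read from 4 further lists of genes. Of 12 genes of calcium entry, 7 rose and 4 fell with FK506 (median log2 fold change 0.29, against 0.02 over all tested genes, of which 41.3% were called higher and 39.6% lower). Among the pore subunits of the calcium channel, Orai2 rose by 1.55 (8.54 to 29.3 FPKM) and Orai3 by 0.83 (8.89 to 18.4 FPKM), while Orai1 fell, with a value of −0.96 (41.8 to 24.8 FPKM). The inositol trisphosphate receptor gene Itpr1 changed by −0.38 and the phospholipase gene Plcg1 by −0.10. Calm2, the highest of the list in Control at 103 FPKM, did not pass (0.05, adjusted p = 0.30). Between combination and FK506, 3 of the 12 were higher, 1 was lower and 8 did not pass, against 15.6% higher and 15% lower of all tested genes. The rises were Plcg1 by 0.31, Itpr2 by 0.24 and Stim2, a calcium sensor of the endoplasmic reticulum, by 0.17. Of 8 other calcineurin regulators, 4 were tested. The RCAN1 relative Rcan3 fell with FK506 (−1.15, 17.9 to 9.35 FPKM) and was 0.23 higher with both drugs than with FK506. Chp1, a calcineurin B homologue and the highest of the list in Control at 34.8 FPKM, rose with FK506 by 0.47 and was lower in the combination than with FK506 (−0.36), and Homer3 rose by 0.39.

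Of 14 other immunophilins (the FK506- or cyclosporin-binding protein families), 13 were tested. Fkbp1b, Fkbp9 and Fkbp10 reached the minimum of 0.5 FPKM only in samples with FK506, so that they had to differ and are only described. Of the 10 that reached it in every group, 1 rose and 7 fell with FK506 (median log2 fold change −0.44), against 41.3% and 39.6% of all tested genes and their median of 0.02. The gene that rose was Fkbp15 (16.0 to 23.2 FPKM), named although outside the rule for named genes. Ppia, which encodes the cyclosporin receptor cyclophilin A and was the highest of them at 1412 FPKM in Control, fell (−0.87), as did Fkbp4, a partner of HSP90 (−0.72). Fkbp11 fell by 1.83 from only 3.02 FPKM. Fkbp9 had 7 to 21 reads per library in Control and 324 to 418 with FK506, and Fkbp10 had 9 or 10 and 155 to 213, both encoding proteins of the endoplasmic reticulum. Fkbp1b, the closest relative of Fkbp1a, had a mean of 0.927 FPKM with FK506 and 0.191 with both drugs, and no sample without FK506 exceeded 0.338. In the combination against FK506, Fkbp7 rose by 1.02 and Fkbp4 by 0.21, and Ppia and Ppif each fell by 0.23, while Fkbp9, at 0.5 FPKM or more in every sample of both groups, rose by 0.82. Of 12 NFAT kinases and transport partners, 10 were tested, with 4 higher and 6 lower with FK506 (median −0.26), again against 41.3% and 39.6% of all tested genes. The NFAT-phosphorylating kinases Dyrk2 and Dyrk1a rose by 1.27 and 0.56, and Nfatc2ip by 0.18. Kpnb1, the importin that carries cargo into the nucleus and the highest of the list in Control at 85.4 FPKM, fell by 0.97, and the casein kinase genes Csnk1a1 and Csnk1e fell too (−0.56 and −0.49). Between combination and FK506, Gsk3b rose by 0.21 and Kpnb1 fell by 0.11.

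Downstream, 15 genes known as NFAT targets in T cells were read. Il3, Il4 and Il21 did not reach 0.5 FPKM in any sample of at least 1 treated group, so they passed through groups where they were high and are only described. Of the other 12 genes, 9 fell and 3 rose with FK506 (median log2 fold change −1.51), 7 fell and 4 rose with Metformin (median −0.35), and 9 fell and 3 rose with both drugs (median −1.02). Of all tested genes 39.6% were lower with FK506, 27.4% with Metformin and 39.6% with both drugs, with medians of 0.02, 0.01 and 0.03. Of the 12, the lowest log2 fold changes with FK506 were those of 3 cytokine genes. Il13 fell from 276 FPKM in Control to 10.4 with Metformin and 1.67 with FK506 (log2 fold change −4.76 and −7.62), Lif from 133 to 10.9 and 2.68 FPKM (−3.64 and −5.84), and Csf2 from 21.0 to 4.98 and 0.835 FPKM (−2.12 and −4.84). Lif and Csf2 were added after their values were seen, since Il4 and Il21, which the rule for named genes picked, are only described. Mean FPKM in Control, Metformin and FK506 was 42.0, 11.1 and 0.456 for Il4, and 13.3, 1.74 and 0.176 for Il21, a cytokine of follicular helper cells. Tnfrsf9, which encodes 4-1BB and was the highest of the list in Control at 454 FPKM, fell with Metformin (−1.61) and FK506 (−3.54). Il2, which is named for its standing as the textbook target although outside the rule for named genes, was at 4.45, 3.85 and 3.98 FPKM in Control and 0.712, 0.871 and 0.626 with FK506 (−2.67, adjusted p = 1.7e-07). The 3 that rose with FK506 were the immediate early genes Nr4a1 (1.11) and Egr3 (0.49) and the CD40 ligand gene Cd40lg (0.31), and all 3 also rose with Metformin (1.45, 1.11 and 0.50). In the combination against FK506, 4 of the 12 were higher and 1 lower, against 15.6% and 15% of all tested genes, with Ifng (0.67), Fasl (0.53) and Tnf (0.39) the largest rises and Egr3 the fall (−0.23). B cell and myeloid marker sums, given above, were higher with FK506 while these T cell products were lower, and their part was not tested.

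**Figure D5:**
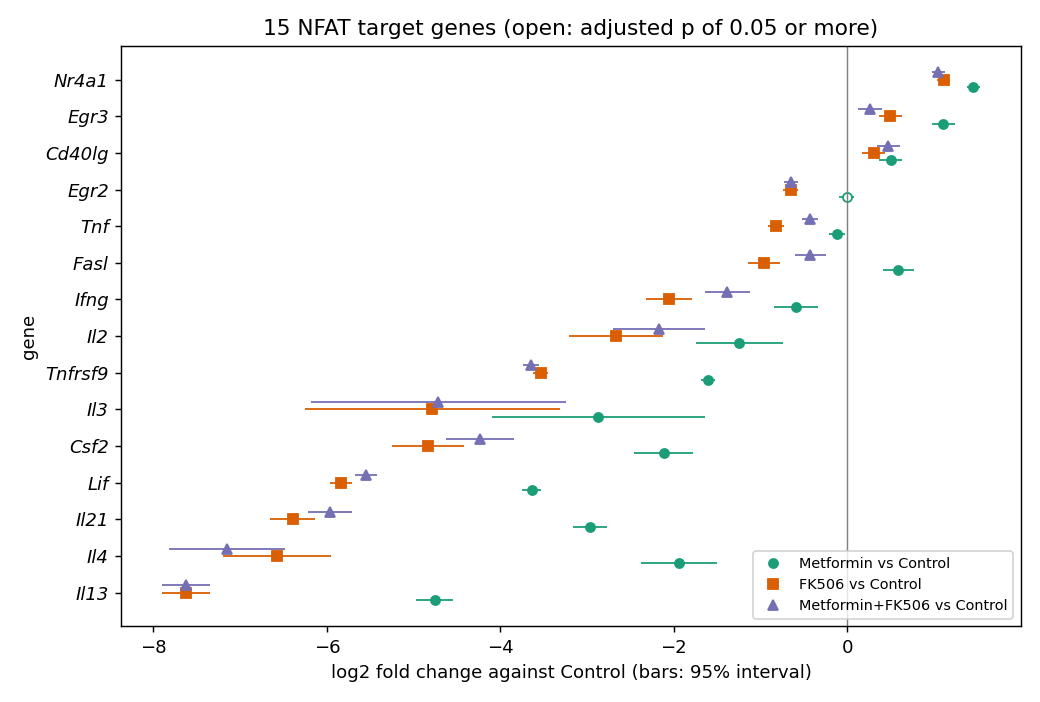
Log2 fold change against Control (horizontal axis) of 15 NFAT target genes with Metformin, FK506 and both drugs, with bars of 95% intervals and open symbols for an adjusted p of 0.05 or more. The points run from Nr4a1 on the right (1.11 with FK506) to Il13 on the left (−7.62), and for the 9 genes from Ifng down the Metformin point lies nearer 0 than the FK506 point. Il3, Il4 and Il21 are drawn as a description only.

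Nfat5 fell, and 6 genes listed as its targets were read beside it. Of the 5 that reached 0.5 FPKM in every group, 2 rose and 2 fell with FK506, where 41.3% and 39.6% of all tested genes were called, so the count does not set the list apart. The calcium-binding protein gene S100a4 rose by 6.53 (0.649 to 76.4 FPKM) and Akr1b3, encoding aldose reductase, by 0.50. The betaine transporter gene Slc6a12 had 0 reads in every Control library and 65 to 132 with FK506, at least 26.0-fold higher taking 3 reads per library as the floor, and it reached 0.5 FPKM only in samples with FK506, so it is only described. The heat shock protein gene Hspa4l fell (−1.79), as did the inositol transporter gene Slc5a3 (−0.61), and Slc6a6, with a value of 0.04, did not pass. In the combination against FK506, Hspa4l, Slc5a3 and the taurine transporter gene Slc6a6 were higher by 0.76, 0.70 and 0.52. S100a4 is also made by myeloid cells, whose marker sum rose in the same samples, and its source was not tested.

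The genes whose profiles over the 12 samples were most like those of the 10 were found by Pearson's r of log2(FPKM + 1) over 15196 others, as a description only, since the samples fall into 4 groups and share their libraries. For Ppp3ca these were Lgals8 (r = 0.9965), Mex3b and Mpp1, and for Fkbp1a Ero1l (r = 0.9979), Vdac1 and Itga3. For Nfatc1 they were Ahnak2 (r = 0.9962), Dnajb2 and Zfand2a, for Nfatc3 Madd (r = 0.9967), Chd3 and Il6st, and for Nfatc2 Atg2b (r = 0.9853), Rsad2 and Gpd2. Like Nfatc2, Rsad2 was highest in Control (6.93 FPKM), lower with Metformin and FK506 (1.31 and 1.61) and between these with both drugs (3.37). For Nfat5 they were Pafah1b3 (r = 0.9895), Polq and Jak3, for Ppp3cc Gm6192 (r = 0.9862), Ss18l2 and Selenoi, and for Rcan1 Alg14 (r = 0.9696), Dcaf10 and Tmem42. The lowest matches were those of Ppp3r1, with Gm20784 (r = 0.9646), LOC102640133 and Acer3, and Ppp3cb, with Tmx1 (r = 0.9644), Cacybp and Smt3h2-ps3.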

How the data were processed

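Gene values were taken for the 12 samples from the deposited table, where the authors gave read counts per gene and FPKM, and its 12 other per-sample columns were left aside. According to the submitters' processing notes, bcl2fastq 2.20.0, Trimmomatic, HISAT2 2.1.0, StringTie 2.1.3b and mm10 were used, and whether counting used the strand is not given in the sources used here. Counts were tested with edgeR 4.0.16 (R 4.3.3) by the quasi-likelihood test with TMM scaling, all 4 groups in 1 fit (8 residual degrees of freedom), on 15197 genes that reached an FPKM of 0.5 in 3 or more samples. P-values were adjusted by Benjamini-Hochberg over all genes tested, with a threshold of 0.05. Intervals are 95% normal intervals from the standard errors and replicates were summarized on FPKM. DESeq2 1.42.0, limma 3.58.1 on log2(FPKM + 1), log2(FPKM + 0.1) and quantile-normalized values, other filters, T cell marker scaling and leaving out samples were alternatives. The 10 genes and the lists were chosen with earlier results of these data known. Named from each list were the 3 largest rises and falls past the threshold with FK506 and between combination and FK506, and the highest gene in Control, except that 1 gene is not reported here. Same-numbered samples of different groups did not deviate together (r from −0.086 to 0.054), so samples were not paired.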

Additional observations from a re-analysis of the deposited data

Results flagged for a closer look

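For 7 of the 10 genes the effect of Metformin differed between cultures with and without FK506 by the interaction test (edgeR quasi-likelihood, Benjamini-Hochberg), 4 with a positive and 3 with a negative value, where 22.5% and 24% of all tested genes were called. The interaction on the log2 scale was −1.25 for Ppp3ca, where Metformin gave 0.99 without FK506 and −0.26 with it, and 1.24 for Nfatc2, where it gave −0.90 and 0.34. It was 0.95 for Fkbp1a (−0.87 without FK506 and 0.08 with it) and −0.43 for Nfatc3 (0.57 and 0.15). The values were −0.28 for Ppp3cc (0.15 and −0.13), 0.27 for Ppp3cb (−0.16 and 0.11) and 0.21 for Nfatc1 (0.20 and 0.41). The calls of Ppp3cc and Nfatc1 were lost on all 3 limma scales, and that of Ppp3cb with scaling to the T cell markers and with Control replicate 3 or Metformin replicate 1 left out (0.23, 0.21 and 0.25). B cell markers were lower with both drugs than with FK506 in the same samples, 10 of 10, while of 9 myeloid markers 3 were higher and 1 lower. In that comparison 15.6% of all tested genes were higher and 15% lower. The part of B and myeloid cells was not tested.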

How the results depend on the processing

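The 60 gene-level values were recomputed under 10 settings and with each of 12 samples left out, except that the 10 interactions could not be fitted with only the groups compared. Of the values for called genes, 950 kept direction and call, 33 kept direction and lost the call and 0 reversed. Of the values not called, 18 became called. The 29 reversals were all of values that were not called, and the cause was not tested. For Ppp3r1, FK506 against Control became −0.0099 and Metformin+FK506 against Control −0.032 without a filter, Metformin against Control 0.0092 (limma, pseudocount 1), 0.0095 (pseudocount 0.1) and 0.064 (quantile), the combination against FK506 5.5e-04 (mean FPKM of at least 1) and 0.0090 (quantile), and the interaction −0.043 (pseudocount 1), −0.044 (pseudocount 0.1), −0.055 (quantile) and −0.018 (T cell scaling). The combination against Metformin became 0.026 (pseudocount 1), 0.027 (pseudocount 0.1) and 0.089 (T cell scaling) for Ppp3cb, and 0.078, 0.091 and 0.13 for Rcan1. With samples left out, Ppp3r1 ranged from −0.024 to 0.083 for FK506 against Control, −0.069 to 0.038 for Metformin, −0.083 to 0.088 for the combination, −0.11 to 0.060 for combination against FK506, −0.052 to 0.12 against Metformin and −0.080 to 0.092 for the interaction. The count of the 10 genes changed between combination and FK506 went from 5 to 3 (limma, pseudocount 1), 2 (pseudocount 0.1) and 3 (quantile), where Ppp3cc lost the call on all 3 scales, Nfatc3 with both pseudocounts and Ppp3ca with pseudocount 0.1 and quantile values. Quantile values also ended the calls of Rcan1 with both drugs (0.17, adjusted p = 0.054) and of Nfat5, Ppp3cb and Ppp3cc with Metformin (−0.15, −0.18 and 0.20, adjusted p = 0.085, 0.078 and 0.21). With only the groups compared in the fit, Ppp3cc between combination and FK506 did not pass (−0.13, adjusted p = 0.066). The Ppp3ca share from counts per coding length was 5.13%, 9.45%, 32.4% and 28.3% in Control, Metformin, FK506 and both. Interaction calls were lost on limma's scales for Ppp3cc (−0.22, adjusted p = 0.36) and Nfatc1 (0.14, adjusted p = 0.12), and for Ppp3cb without Control replicate 3 (0.21, adjusted p = 0.062) or Metformin replicate 1 (0.25, adjusted p = 0.050). The interaction of Nfat5 was called in DESeq2 (0.22, adjusted p = 0.040) and without Control replicate 2, Metformin replicate 1, FK506 replicate 2 or Metformin+FK506 replicate 2 (0.26 to 0.29). Ppp3cb differed between combination and Metformin without Metformin+FK506 replicate 2 (−0.20, adjusted p = 0.0016) and without a filter (−0.16, adjusted p = 0.045). Scaling to T cell markers moved the median of all genes from 0.02 to 0.27 with FK506. With the replicate number as a block, 8 of the 10 genes were called with FK506 as without it, and 0 of the 60 calls changed. The lowest count of the 10 genes, 481 reads, was that of Rcan1, whose standard errors were the largest with FK506 (0.099).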
